A study of Mus musculus with 3 samples.

Results

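The 8 genes described here encode constant and variable parts of the T cell receptor, and they were taken by symbol from the 31053 genes of the count tables. Trdc and Trdv4 belong to the delta chain, Tcrg-C1, Tcrg-C2 and Tcrg-C4 to the gamma chain, Trac to the alpha chain, and Trbc1 and Trbc2 to the beta chain. They were measured in mouse skin by droplet single-cell RNA sequencing, in which a unique molecular identifier (UMI) stands for 1 captured transcript. Both libraries came from C57BL/6 mice labelled as 7 weeks old, and one was labelled control and the other metformin. The labels give no sex, body site, dose or number of animals. A library labelled Shi-Bi-Man was not analysed here. Cells were gated by the CD3 genes, whose proteins carry every T cell receptor to the cell surface. A cell entered the gate when its Cd3d, Cd3e and Cd3g counts summed to at least 2 UMIs. This gate held 610 of 9688 control cells and 658 of 8827 metformin cells.

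A T cell builds its receptor either from a gamma and a delta chain or from an alpha and a beta chain. The delta genes lie inside the alpha locus, so that joining an alpha variable segment removes the delta constant gene from that chromosome. Beta and gamma genes lie on other chromosomes and can be rearranged and transcribed before the lineage is settled. Mouse epidermis is populated by dendritic epidermal T cells, which carry a gamma delta receptor made from the variable segments Tcrg-V5 and Trdv4. Mouse dermis holds further gamma delta T cells, among them producers of interleukin 17, together with alpha beta T cells such as regulatory T cells.

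In GENCODE M21 on GRCm38, Trdv4 lies at chr14:54074905-54075515, Trdc at chr14:54142851-54148868 and Trac at chr14:54220521-54224206, all on the plus strand. Trbc1 lies at chr6:41538218-41539881 and Trbc2 at chr6:41546730-41548352, both on the plus strand. Tcrg-C1 lies at chr13:19214103-19217024 and Tcrg-C4 at chr13:19344558-19352756 on the plus strand, and Tcrg-C2 at chr13:19304649-19307551 on the minus strand. Trdc overlaps the antisense gene Gm43434 and the inverted variable segment Trdv5, and Trdv4 overlaps the antisense gene Gm30275. All of these partners lie on the opposite strand. Whether the counting used strand is not given in the sources used here, so it could not be checked that their reads were kept apart.

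Several of the genes are close copies, and the sequences below show how far reads could separate them. Trbc1 and Trbc2 differed at 1 of 375 bases in exon 1. Their exon 3 differed at 15 of 107 bases, which are in capitals in the GENCODE M21 sequences here (chr6:41539229-41539335 and chr6:41547772-41547878, both exonic and coding).
Trbc1 exon 3: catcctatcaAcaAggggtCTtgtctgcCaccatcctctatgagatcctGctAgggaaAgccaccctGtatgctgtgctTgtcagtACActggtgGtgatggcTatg
Trbc2 exon 3: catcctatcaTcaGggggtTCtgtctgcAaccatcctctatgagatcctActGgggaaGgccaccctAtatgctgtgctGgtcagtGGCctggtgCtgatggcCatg

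Of the 50-base windows of the Trbc1 transcript, 41.1% also occurred in Trbc2, and none of the windows in its last 300 bases did. The 3 gamma constant genes are compared over the first 60 bases of their first exon (chr13:19214103-19214162 plus, chr13:19307492-19307551 minus and chr13:19344558-19344617 plus). Capitals mark every position at which the 3 sequences were not all the same.
Tcrg-C1: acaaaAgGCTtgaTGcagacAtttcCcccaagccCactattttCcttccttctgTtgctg
Tcrg-C2: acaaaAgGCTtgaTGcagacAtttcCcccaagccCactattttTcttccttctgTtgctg
Tcrg-C4: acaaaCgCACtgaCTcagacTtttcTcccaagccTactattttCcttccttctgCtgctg

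Tcrg-C2 differed from Tcrg-C1 at 1 of these bases and Tcrg-C4 at 10. Tcrg-C1 and Tcrg-C2 shared 157 windows of 50 bases, of which 55 lay in the last 300 bases of Tcrg-C1. Tcrg-C4 shared no such window with either. Counts of Tcrg-C1 and Tcrg-C2 are therefore less certain than those of Tcrg-C4, and a read in exon 1 cannot place Trbc1 apart from Trbc2 except at that 1 base. The counts of Trdc and Trac do not have this limit, since their transcripts shared no 50-base window.

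The gated cells were shallower than the rest of the skin. Their median depth was 2321.5 UMIs in control and 2286.5 in metformin, against 3731 and 5878.5 in cells without a CD3 UMI. The gate kept 99.6% and 99.3% of all CD3 UMIs of the kept cells. Ptprc (CD45, the common leukocyte antigen) was detected in 71.8% and 74.9% of the gated cells. Some markers of other cells were present. A keratinocyte marker had a UMI in 43.0% and 36.8% of gated cells, with Krt14 in 20.5% and 19.3% (1736 and 406 UMIs), and Cd74, a gene of antigen-presenting cells, was in 16.6% and 19.6% (1618 and 1639 UMIs). Cdh5, Ms4a1, Ncr1 and Eomes were at 0 in both libraries. The summed keratinocyte markers had a median of 0 and reached 292 UMIs in both libraries, and 36 control (5.90%) and 19 metformin cells (2.89%) had a sum of at least 10. The same limit was passed by 7 and 10 cells for fibroblast markers and by 15 and 12 cells for myeloid markers. The libraries shared 41 barcode sequences over all barcodes and 0 among the gated cells. With 1 library per agent there is no replicate, so no test was made between agents, and library and agent cannot be told apart. All intervals below are 95% intervals that cover counting error only.

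Trdc, the delta constant gene, was the most widely detected of the 8 genes in the gate. It had a UMI in 498 of 610 control cells (81.6%, exact interval 78.3 to 84.6) and in 456 of 658 metformin cells (69.3%, 65.6 to 72.8). The metformin share differed by -12.3 points (Newcombe interval -17.0 to -7.62). No Trdc UMI was found in 112 control and 202 metformin cells, and above that the counts were spread without a gap. Exactly 1 UMI was in 35 and 27 cells, 2 in 29 and 26, 3 to 5 in 107 and 81, and 6 to 10 in 169 and 134. Among cells with Trdc the median count was 8 UMIs in control and 9 in metformin. Summed over the gate, Trdc gave 4585 and 4948 UMIs, or 2696 and 2738 per 1000000 UMIs of the gate, a metformin over control ratio of 1.02 (0.98 to 1.06). The log2 of that ratio was 0.02, and its sign depended on which cells were summed. It was -0.18 (-0.24 to -0.12) with a gate of at least 1 CD3 UMI, -0.12 (-0.18 to -0.07) with a wider cell filter, -0.15 (-0.20 to -0.09) with doublets kept and -0.10 (-0.15 to -0.036) in gated cells with few keratinocyte UMIs. Within the Trdc cells alone the Trdc level ratio was 1.20 (1.15 to 1.24). A summed level cannot tell fewer cells from less RNA per cell.

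Trdv4, a delta variable segment used by dendritic epidermal T cells, had a UMI in 370 control (60.7%, 56.7 to 64.6) and 332 metformin cells (50.5%, 46.6 to 54.3). Its share differed by -10.2 points (-15.6 to -4.73), and its level ratio was 0.77 (0.70 to 0.84), from 1160 and 945 UMIs. It was the member whose level was lowest in metformin relative to control. Within Trdc cells the share with Trdv4 was 73.3% in control and 72.1% in metformin, a difference of -1.14 points (-6.80 to 4.49), and the Trdv4 level ratio was 0.90 (0.83 to 0.98). In the same cells the level ratio of Tcrg-C1 was 1.21 (1.13 to 1.29).

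Of the gamma constant genes, Tcrg-C1 followed Trdc. It was detected in 446 control (73.1%, 69.4 to 76.6) and 412 metformin cells (62.6%, 58.8 to 66.3), a difference of -10.5 points (-15.5 to -5.36) that was -5.60 (-11.2 to 0.076) after each cell was thinned to 1500 UMIs. Thinning draws the same number of UMIs from every cell, which left 546 control and 588 metformin cells and dropped 64 and 70. After the same thinning the Trdc difference was -9.89 points (-14.9 to -4.79) and the Trdv4 difference -10.6 (-16.3 to -4.76). Tcrg-C2 was sparse, in 87 (14.3%) and 97 cells (14.7%), and 67 and 71 of these had exactly 1 UMI. Tcrg-C4 was in 148 (24.3%) and 165 cells (25.1%). The intervals of the difference were -3.43 to 4.35 points for Tcrg-C2 and -3.94 to 5.54 for Tcrg-C4. The level ratio of Tcrg-C4 was 1.27 (1.05 to 1.54). The interval of its log2 ratio spanned no change with a gate of at least 1 CD3 UMI (-0.13 to 0.42) and with a wider cell filter (-0.026 to 0.49). The same held with doublets kept (-0.12 to 0.41) and in gated cells with few keratinocyte UMIs (-0.032 to 0.53). Tcrg-C3, a gamma constant gene outside the 8, gave 0 UMIs in the control gate and 3 in the metformin gate.

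Trac, the alpha constant gene, was detected in 181 control (29.7%, 26.1 to 33.5) and 212 metformin cells (32.2%, 28.7 to 35.9). Most of these cells had few counts: 110 and 112 had exactly 1 UMI. The difference in share was 2.55 points (-2.55 to 7.61), and the level ratio was 1.34 (1.16 to 1.55), from 322 and 458 UMIs. The beta constant genes were more widely detected. Trbc1 was in 51.3% (47.3 to 55.3) and 49.2% (45.4 to 53.1) of cells, and Trbc2 in 62.8% (58.8 to 66.6) and 62.9% (59.1 to 66.6). The differences in share were -2.07 points (-7.55 to 3.43) for Trbc1 and 0.13 (-5.17 to 5.45) for Trbc2. The level ratio was 1.11 (1.01 to 1.23) for Trbc1 and 1.32 (1.21 to 1.46) for Trbc2. The direction of the Trbc1 level did not hold, since its log2 ratio was 0.16 here but -0.045 with a gate of 1 CD3 UMI, -0.11 with the wider cell filter, -0.0051 as a mean over cells and 0.0039 with doublets kept. In the control library the shares ran, from high to low, Trdc, Tcrg-C1, Trbc2, Trdv4, Trbc1, Trac, Tcrg-C4 and Tcrg-C2. The intervals of the neighbours Trbc2 and Trdv4 overlapped, as did those of Trac and Tcrg-C4. In metformin Trbc2 stood level with Tcrg-C1 (62.9% and 62.6%).

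None of the 8 genes passed a 1.5-fold ratio in either direction between the libraries. Of 9260 genes with at least 20 UMIs in the gate, 11% were at least 1.5-fold higher in metformin and 8.6% at least 1.5-fold lower. The median log2 ratio was 0.18 over the 8 genes and 0.04 over all 9260. A list of alpha beta co-receptor and lineage genes stood higher, with a median of 0.81 and 8 of its 11 measured genes at least 1.5-fold higher in metformin. Among these were Ctla4 (118 and 268 UMIs, ratio 2.14, 1.71 to 2.68), an inhibitory receptor abundant on regulatory T cells, and Icos (152 and 248 UMIs, 1.54, 1.25 to 1.89), a costimulatory receptor. In the 10 genes of the CD3 complex and its signalling the median was 0.04, and none passed 1.5-fold.

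**Figure D1:**
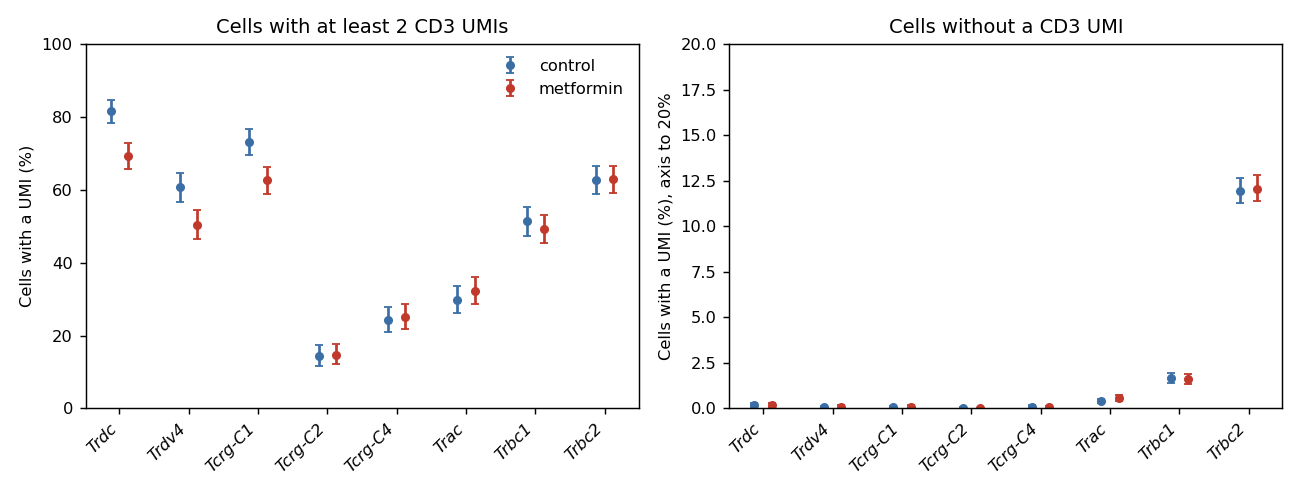
Share of cells (%) with at least 1 UMI of each receptor gene, in cells with at least 2 CD3 UMIs (left, axis to 100%) and in cells without a CD3 UMI (right, axis to 20%), with points for the control (blue) and metformin (red) libraries and bars for exact 95% intervals. Trdc, Trdv4 and Tcrg-C1 were lower in metformin inside the gate, and outside it only Trbc2 rose above 2% of cells, at 12.0% and 12.1%.

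The gate captured nearly all transcripts of 5 members. Of all UMIs in kept cells, those in the gate were 99.6% in both libraries for Trdc, 99.3% and 98.8% for Trdv4, and 99.4% and 99.5% for Tcrg-C1. For Trac they were 87.0% and 87.1%, for Trbc1 74.0% and 79.3%, and for Trbc2 26.1% and 38.3%. The CD3 limit itself bore unequally on the members. Cells with exactly 2 CD3 UMIs, 15 in control and 30 in metformin, had Trdc in 1 and 2 cells but Trac in 6 and 14. Cells with at least 4 CD3 UMIs had Trdc in 85.6% and 75.2% and Trac in 29.2% and 31.2%. Cells with 1 CD3 UMI lay just outside the gate, and among 66 and 113 of them Trdc was in 4 and 3 cells and Trac in 4 and 8. In the control library all 15 cells at the limit had at least 1 of the 8 genes, against 22 of the 30 in metformin.

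By co-detection Trdv4, Tcrg-C1 and Tcrg-C4 went with Trdc and Trac went against it, with the beta genes between them. Tcrg-C2 was less clear. Of the cells with Trdv4, 98.6% in control and 99.1% in metformin also had Trdc. Of those with Tcrg-C1, 97.8% and 97.1% had Trdc, and of those with Tcrg-C4, 96.6% and 97.0%. The phi coefficient, which is 0 when 2 genes are detected independently over cells, was 0.69 and 0.78 for Trdc with Tcrg-C1 and 0.55 and 0.65 for Trdc with Trdv4. For Trdc with Tcrg-C4 phi was 0.22 and 0.35. For Trdc with Tcrg-C2 it was 0.12 and 0.16, and 93.1% and 86.6% of Tcrg-C2 cells had Trdc. Phi is held down when one gene is found in far fewer cells than the other. The values for the sparse Tcrg-C2 and Tcrg-C4 therefore cannot be set directly against that for Tcrg-C1. The phi coefficient describes cells of 1 library that share their depth and the gate, and carries no test.

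Trac went against Trdc. The 2 genes were found together in 116 control and 86 metformin cells, 0.79 and 0.59 times the product of their shares, with phi of -0.29 and -0.43. The share with Trdc was graded by the Trac count, in strata chosen after values were seen. Trdc was in 89.0% of control and 83% of metformin cells without Trac, in 80% and 58.0% of those with 1 Trac UMI, and in 28 of 71 (39.4%) and 21 of 100 (21%) of those with 2 or more. Trac was in 58.0% and 62.4% of cells without Trdc. Among cells with Trdc the share with Trac rose with the Trdc count. It was 15.6% and 11.3% at 1 to 2 Trdc UMIs, 22.5% and 15.3% at 3 to 10, and 27.8% and 25% above 10. Depth was not matched across these strata.

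The beta genes did not divide along this line. Trbc1 was in 54.2% and 53.9% of Trdc cells and Trbc2 in 60.6% and 62.3%. Phi with Trdc was 0.12 and 0.14 for Trbc1 and -0.09 and -0.02 for Trbc2. Phi of Trac with Trbc2 was only 0.05 in both libraries, and with Trbc1 it was -0.03 and -0.04. Trbc1 rose with the Trdc count, from 38.4% and 38.6% of cells without Trdc to 63.3% and 64.4% of cells with over 10 Trdc UMIs. Trbc2 was in 72.3% and 64.4% of cells without Trdc, and in 63.3% and 72.9% of those with over 10. Here too depth was not matched across the strata.

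**Figure D2:**
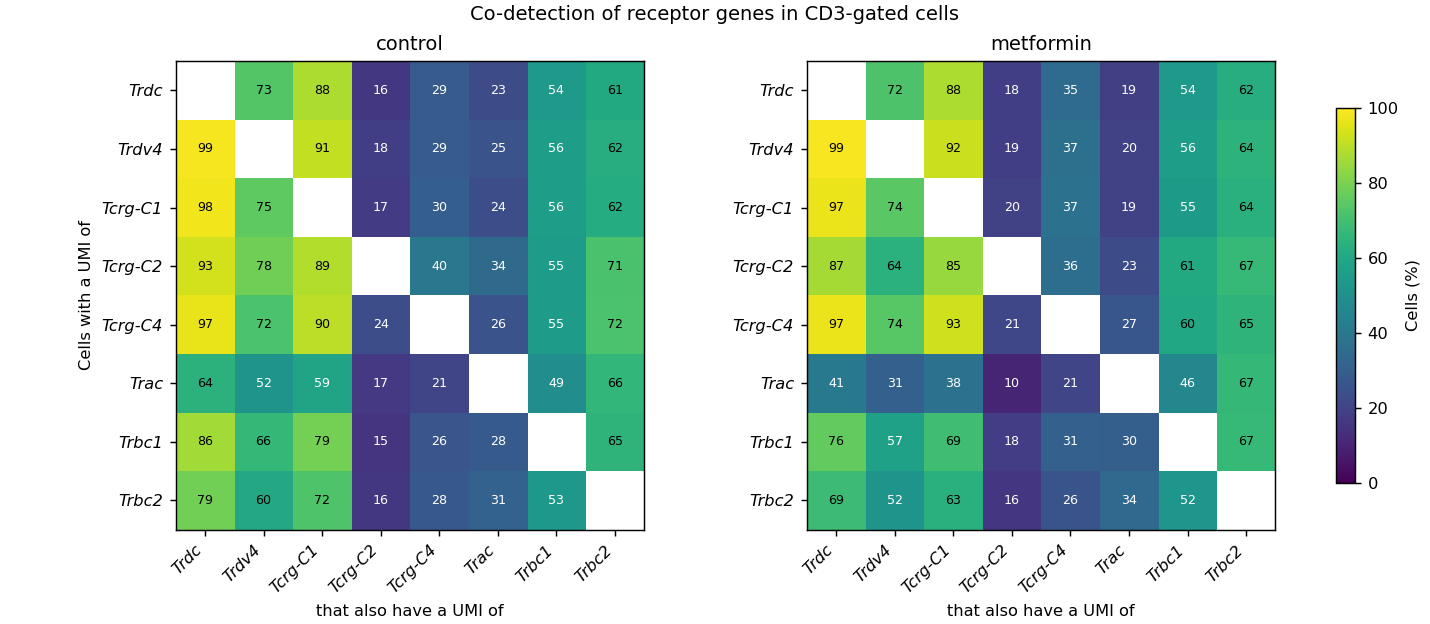
Co-detection of the 8 receptor genes in CD3-gated cells of each library, where each square gives the share (%) of cells with the row gene that also had the column gene. Rows of Trdv4, Tcrg-C1 and Tcrg-C4 reached 97 to 99% in the Trdc column, whereas Trac stood at 64% in control and 41% in metformin.

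The cells were next sorted by chain. A cell was counted as delta when it had a UMI of Trdc or Trdv4, and as alpha beta when it had one of Trac, Trbc1 or Trbc2. The class names state which transcripts were detected and not the lineage of a cell. Trbc1 and Trbc2 were each in most Trdc cells, so their detection alone does not mark an alpha beta T cell. Cells of both kinds were the largest class, with 426 control (69.8%, 66.0 to 73.5) and 384 metformin cells (58.4%, 54.5 to 62.2). Delta-only cells numbered 77 (12.6%) and 75 (11.4%), and alpha-beta-only cells 98 (16.1%, 13.2 to 19.2) and 176 (26.7%, 23.4 to 30.3). A further 9 (1.48%) and 23 cells (3.50%) had neither. The metformin library differed by 10.7 points (6.18 to 15.1) for alpha-beta-only cells and by -11.5 points (-16.7 to -6.20) for cells with both. These are shares of the same gate, so a higher share of one class lowers the others. The gate itself held 6.30% of 9688 control and 7.45% of 8827 metformin kept cells. Set against kept cells, those with Trdc (498 and 456) or Trdv4 (370 and 332) were nearly level. Alpha-beta-only cells were more frequent in metformin on that scale too. At 1500 UMIs per cell, alpha-beta-only cells were 14.7% and 23.8%, cells with both 57.0% and 52.6%, and delta-only cells 23.3% and 17.2%. The split between delta-only cells and cells with both thus moved with depth, and the alpha-beta-only difference did so less.

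Median CD3 counts differed between the classes. They were 20 and 19 UMIs in delta-only cells, 25.5 and 31 in cells with both, and 5 and 6 in alpha-beta-only cells. Median total depth was 2217 and 2063 UMIs in delta-only cells, 2160.5 and 2217.5 in alpha-beta-only cells, and 2365.5 and 2420 in cells with both. Doublets had been removed beforehand. Of 37 control and 73 metformin barcodes in the gate that were called doublets, 20 and 49 would have had both kinds.

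**Figure D3:**
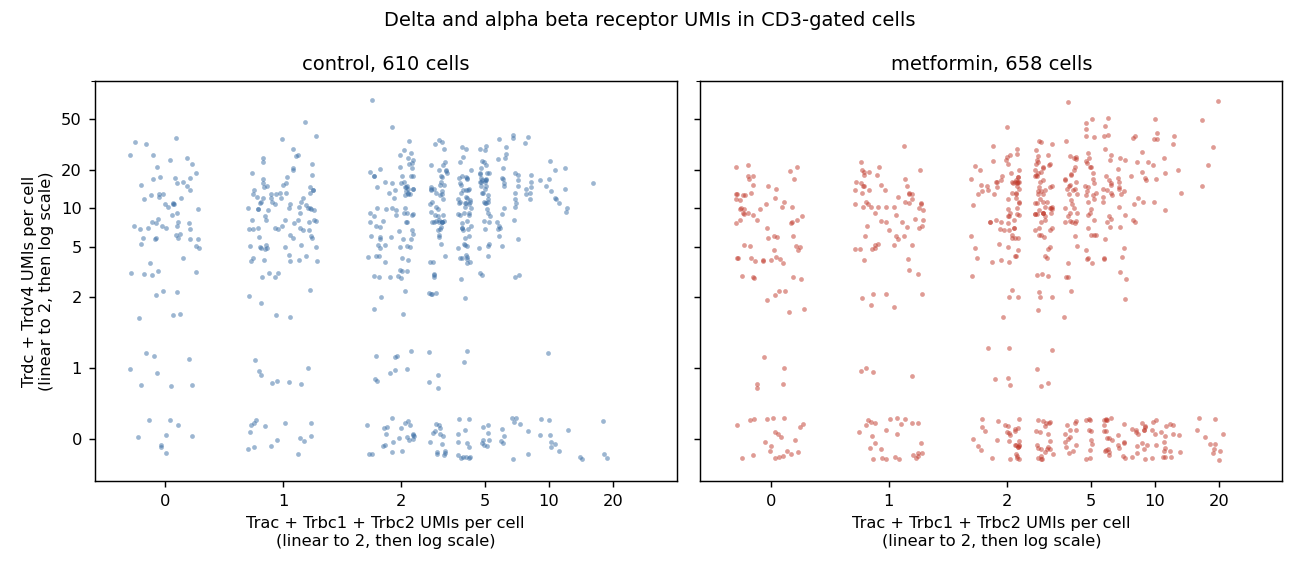
Trdc plus Trdv4 UMIs against Trac plus Trbc1 plus Trbc2 UMIs in every CD3-gated cell (610 control and 658 metformin cells), on axes that are linear to 2 and logarithmic above, with points shifted at random by up to 0.3 for visibility. A dense group lay above 2 delta UMIs with 1 to 5 alpha beta UMIs (333 control and 281 metformin cells), and a second band lay at 0 delta UMIs (107 and 199 cells).

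The alpha and beta genes were not present in the same proportions in the classes. Alpha-beta-only cells had Trac in 65.3% (55.0 to 74.6) and 71.0% (63.7 to 77.6), and cells with both had it in 27.5% (23.3 to 32.0) and 22.7% (18.6 to 27.2). Trbc1 showed the opposite order, with 40.8% (31.0 to 51.2) and 44.3% (36.8 to 52.0) of alpha-beta-only cells and 64.1% of cells with both in each library. Trbc2 was in 77.6% and 73.9% of alpha-beta-only cells and in 72.1% and 74.0% of cells with both. In 309 of the 426 control cells with both, and in 297 of the 384 metformin cells, the alpha beta signal came from Trbc1 or Trbc2 without Trac.

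The gamma constant genes were left out of the class rule and followed the delta genes. Tcrg-C1 was in 83.1% and 86.7% of delta-only cells and in 87.8% of cells with both in each library, against 7.14% (2.92 to 14.2) and 5.11% (2.36 to 9.49) of alpha-beta-only cells. Tcrg-C4 was in 20.8% and 28.0% of delta-only cells against 4.08% and 1.70% of alpha-beta-only cells. Tcrg-C2 was in 10.4% and 16% against 4.08% and 5.68%. Of the 503 control and 459 metformin cells with a delta gene, 262 and 203 had Tcrg-C1 alone among the 3 gamma genes, and 49 and 43 had none of them. Tcrg-C2 without Tcrg-C1 or Tcrg-C4 was rare, with 4 and 5 cells.

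Variable segments were sparse apart from Trdv4. Of 256 variable, diversity and joining genes listed in the tables, 47 had a UMI in the gate. Delta segments were in 373 and 336 cells, gamma segments in 113 cells of each library, beta segments in 11 and 22, and alpha segments in 7 and 20. Tcrg-V5, the gamma segment paired with Trdv4 in dendritic epidermal T cells, was in 65 control and 66 metformin cells, of which 52 and 57 had Trdv4 and 62 and 66 had Tcrg-C1. Of these Tcrg-V5 cells, 56 and 60 also had Xcl1, a chemokine of dendritic epidermal T cells, and 0 and 1 had Il17a. Trgv2 was in 40 and 38 cells and stood with Tcrg-C2 in 19 of each, or 47.5% and 50%. For Tcrg-V5 cells the share with Tcrg-C2 was 24.6% and 15.2%. Tcrg-V6 was in 7 control and 4 metformin cells, of which 6 and 4 had Trdv4, 5 and 1 Xcl1, and 0 and 1 Il17a. Tcrg-V4 was in 5 and 7 cells, with Trdv4 in 4 and 6. Tcrg-V1 was in 6 cells of each library, with Trdv4 in 4 and 5. Trdv4 was thus also found beside gamma segments other than Tcrg-V5.

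Other genes were then read in the classes, with no test since the classes were defined by the receptor genes. Most genes of a dendritic epidermal T cell list were more often detected in delta-only cells. Cd7, a surface receptor of T and natural killer cells, was in 84.4% and 82.7% of them and in 21.4% and 19.9% of alpha-beta-only cells. Klrd1, the CD94 receptor, was in 72.7% and 72.0% against 12.2% and 10.2%. Nkg7, a protein of cytotoxic granules, was in 75.3% and 77.3% against 26.5% and 33.5%, and Xcl1 in 53.2% and 53.3% against 13.3% and 7.39%. Of the 13 genes in this list, 9 were more often detected in delta-only cells of both libraries and 2 in alpha-beta-only cells. Those 2 were Gzmb, a granule protease, in 6.49% and 6.67% of delta-only against 20.4% and 14.8% of alpha-beta-only cells, and Cd160, a surface receptor, in 3.90% and 5.33% against 7.14% and 6.82%. Itgae, the integrin CD103, was in 41.6% and 45.3% against 39.8% and 40.3%. Over all 11242 genes with a UMI in these classes, 3051 were more often detected in delta-only cells of both libraries and 3692 in alpha-beta-only cells.

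Signalling chains differed as well. Fcer1g, a signalling subunit that can take the place of the zeta chain in the receptor complex, was in 79.2% and 74.7% of delta-only cells and in 15.3% and 7.39% of alpha-beta-only cells. Cd247, the zeta chain itself, was in 62.3% and 62.7% against 22.4% and 24.4%. Cd3e was in 90.9% and 94.7% against 50% and 57.4%. Of the 10 genes of this list 8 were more often detected in delta-only cells of both libraries, and none the other way. The CD3 genes defined the gate, and they belong to this list.

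Most genes of the alpha beta co-receptor and lineage list were more often detected in alpha-beta-only cells. The co-receptors themselves were in a minority of these cells, with Cd4 in 14.3% and 15.3%, Cd8a in 3.06% and 4.55%, and Cd8b1 in 5.10% and 6.82%. Ctla4 was in 39.8% and 42.0% of alpha-beta-only cells against 2.60% and 1.33% of delta-only cells, and Icos in 44.9% and 47.7% against 6.49% and 10.7%. Cd5, a dampener of receptor signalling, was in 22.4% and 22.2%, and in none of the delta-only cells. Ikzf2, the transcription factor Helios, was in 49.0% and 46.0% against 29.9% and 22.7%. Foxp3, which defines regulatory T cells, was in 13.3% and 13.6% of alpha-beta-only cells and in 0 of 77 and 0 of 75 delta-only cells, which allows shares of up to 3.90% and 4%. Of the 12 genes of this list, 11 were more often detected in alpha-beta-only cells of both libraries.

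The gamma delta lineage and type 17 list divided. Il7r, the interleukin 7 receptor, was in 48% and 50% of alpha-beta-only and 13.0% and 16% of delta-only cells, and Maf, a transcription factor, in 41.8% and 38.1% against 19.5% and 17.3%. Ccr6, a chemokine receptor of interleukin 17 producers, was in 5.10% and 6.82% against 0% and 1.33%. Cd163l1, a scavenger receptor of gamma delta T cells, went the other way, with 10.4% and 20% of delta-only cells against 4.08% and 2.27%. In all, 7 of these 13 genes were more often detected in delta-only cells of both libraries and 4 in alpha-beta-only cells. In the innate lymphoid and natural killer list the counts were 2 and 4 of 8, with Rora in 14.3% and 22.7% of delta-only cells against 57.1% and 52.3%. Of the 4 rearrangement genes, Rag1, Rag2 and Dntt were at 0 in both classes of both libraries.

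Among genes ranked by the difference between the classes, Nrgn, Fermt2, Prkacb, Avil, Spry2 and Jun joined Fcer1g, Cd7, Klrd1 and Nkg7 on the delta side. Avil, an actin-binding protein, was in 48.1% and 46.7% of delta-only cells and in 1.02% and 1.14% of alpha-beta-only cells. On the alpha beta side stood Ifi27l2a, Tnfrsf4, Ptpn18, Dusp2, AW112010, Gmfg, Bcl2a1b, Ctla4, Icos and Cotl1. Ifi27l2a, an interferon-inducible gene, was in 76.5% and 72.7% of alpha-beta-only cells and in 11.7% and 5.33% of delta-only cells. Tnfrsf4, the costimulatory receptor OX40, was in 52.0% and 48.9% against 1.30% and 0%.

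Cells with both kinds of receptor transcript lay on the delta-only side in these genes, and often beyond the delta-only values. Fcer1g was in 89.2% and 88.3% of them against 79.2% and 74.7% of delta-only cells, Cd7 in 91.1% and 90.1% against 84.4% and 82.7%, and Xcl1 in 74.2% and 76.0% against 53.2% and 53.3%. Ifi27l2a was in 11% and 8.07%, Tnfrsf4 in 0.94% and 0.26%, and Ctla4 in 1 of 426 and 0 of 384. Foxp3 was in 0 of 426 and 0 of 384 cells, which allows shares of up to 0.70% and 0.78%. Cd4 was in 2 control cells and 0 metformin cells of this class, against 14 of 98 and 27 of 176 alpha-beta-only cells. Their values were therefore not midway between those of the other classes.

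**Figure D4:**
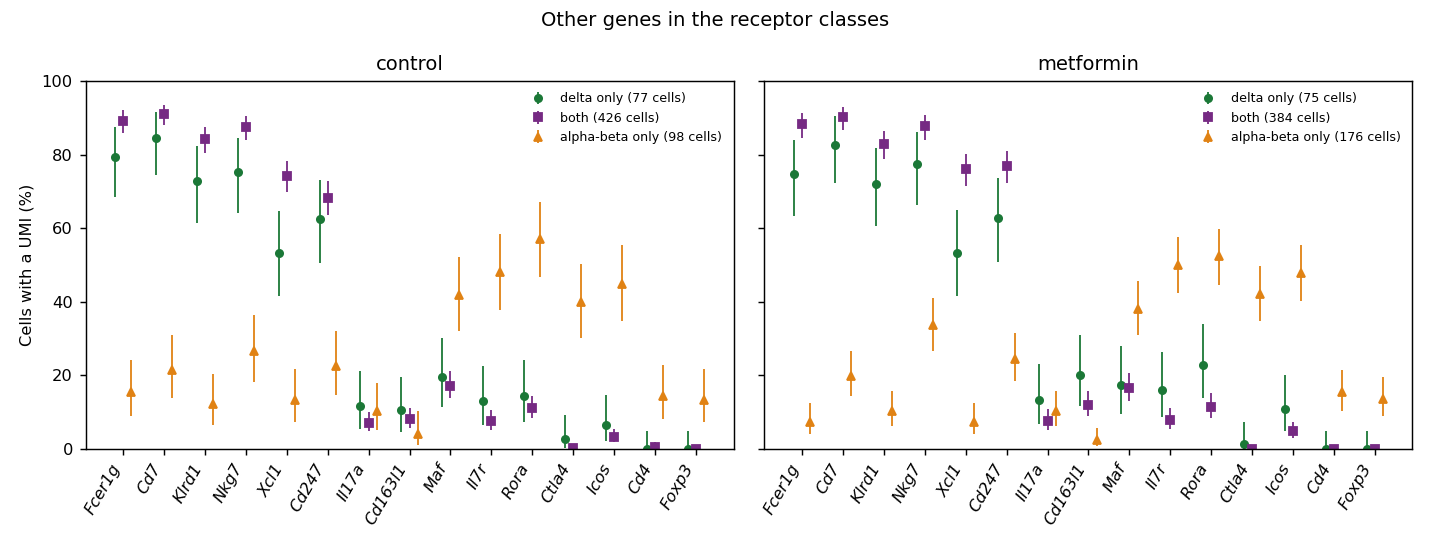
Share of cells (%) with a UMI of 15 listed genes in delta-only cells (green circles), cells with both kinds of receptor transcript (purple squares) and alpha-beta-only cells (orange triangles) of each library, with exact 95% intervals. Cells with both lay at or above the delta-only cells for Fcer1g, Cd7, Klrd1, Nkg7 and Xcl1, and at or below them for Ctla4 and Icos, away from the alpha-beta-only cells.

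Over single cells the genes whose log-scaled values were most correlated with Trdc were Cd7 (Pearson's r of 0.78 in both libraries), Fcer1g (0.75 and 0.79), Cd3g (0.69 and 0.76), Cd3e (0.73 and 0.70) and Nkg7 (0.68 and 0.68), among 4985 genes compared. For Trac the closest were Ifi27l2a (0.35 and 0.49), Tnfrsf4 (0.34 and 0.41), Ctla4 (0.27 and 0.39), AW112010 (0.18 and 0.44) and Dusp2 (0.26 and 0.31). These are descriptions over 610 and 658 cells, each set from 1 library with its own depths.

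Trdc cells with and without Trdv4 were compared in a split chosen after values were seen. There were 365 control and 329 metformin cells with both genes, at median depths of 2420 and 2493 UMIs, and 133 and 127 with Trdc alone, at 2066 and 2089. Xcl1 was in 79.7% (75.2 to 83.7) and 79.0% (74.2 to 83.3) of cells with Trdv4, and in 49.6% (40.8 to 58.4) and 55.1% (46.0 to 63.9) of those without. Il17a was in 2.47% (1.13 to 4.63) and 3.65% (1.90 to 6.28) with Trdv4, and in 20.3% (13.8 to 28.1) and 20.5% (13.8 to 28.5) without.

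Other type 17 genes went the same way. Il7r was in 3.01% and 5.17% of cells with Trdv4 and in 20.3% and 19.7% of those without, and Blk, a kinase of gamma delta T cells that make interleukin 17, in 1.37% and 3.95% against 13.5% and 20.5%. 5830411N06Rik, a scavenger receptor gene, was in 0 of 365 control cells with Trdv4, which allows a share of up to 0.82%, and in 2 of 329 metformin cells. It was in 20 of 133 and 16 of 127 cells without Trdv4. Maf did not divide as clearly, with 17.5% and 14.6% against 17.3% and 21.3%. Among members, Tcrg-C1 was in 91.5% and 92.4% of cells with Trdv4 and in 76.7% and 75.6% of those without. Trac was in 25.5% and 19.5% against 17.3% and 17.3%, Trbc1 in 56.2% and 56.2% against 48.9% and 48%, and Trbc2 in 61.9% and 65% against 57.1% and 55.1%.

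Trbc2 was the one member found widely outside the gate. Among cells without a CD3 UMI it was in 1077 of 9012 control (12.0%) and 972 of 8056 metformin cells (12.1%). Comparison gates without CD3 and Ptprc UMIs were set by keratinocyte or fibroblast markers. In keratinocyte-gated cells Trbc2 was in 1002 of 2985 control (33.6%, 31.9 to 35.3) and 895 of 4018 metformin cells (22.3%, 21 to 23.6), at median depths of 8167 and 7310.5 UMIs. In fibroblast-gated cells it was in 0.29% and 0.58%, at median depths of 2730 and 3691. At 1500 UMIs per cell the shares were 9.34% (8.32 to 10.4) and 6.48% (5.73 to 7.28) in the keratinocyte gate, against 0.14% and 0.16% in the fibroblast gate. The keratinocyte-gated cells thus had more Trbc2 at equal depth.

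The other members were far less often detected there. Trac was in 0.54% and 0.60% of keratinocyte-gated cells, Trdc in 0.10% and 0.15%, and Trbc1 in 3.15% and 2.22%. Trbc2 UMIs stood to Trbc1 UMIs as 12.1 to 1 (10.3 to 14.2) and 10.3 to 1 (8.75 to 12.3) in the keratinocyte gate, and as 1.01 to 1 (0.91 to 1.11) and 1.20 to 1 (1.09 to 1.31) in the CD3 gate. To Trac they stood as 123 and 62.1 to 1 in the keratinocyte gate, and as 2.34 and 2.31 to 1 in the CD3 gate. Trbc1 was more often found beside Trbc2, in 7.09% and 7.26% of keratinocyte-gated cells with Trbc2 and in 1.16% and 0.77% of those without. Other T cell genes were rare in keratinocyte-gated cells with and without Trbc2. Cd247 was in 0.20% and 0.22% of those with Trbc2 and in 0.35% and 0.032% of those without, and Cd7 in 0.30% and 0.89% against 0.25% and 0.32%.

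The Trbc2 share was highest where the keratins of the suprabasal layers were high, in strata chosen after values were seen. Krt10 and Krt1 mark keratinocytes that have left the basal layer. With their sum at 0 Trbc2 was in 20.3% and 14.6% of keratinocyte-gated cells, with a sum of 1 to 9 in 19.9% and 14.6%, and with 10 or more in 55.8% (52.8 to 58.7) and 44.7% (41.7 to 47.8). Median depth also rose, from 6854 and 6420 UMIs in the first stratum to 9574.5 and 8719.5 in the last. At 1500 UMIs per cell the shares were 5.43% and 4.19% in the first and 16.1% and 12.4% in the last. Krt5 and Krt14, keratins of the basal layer, were in 61.1% and 72.8% of control cells with Trbc2 and in 82.9% and 91.9% of those without. The source of the Trbc2 reads was not tested.

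**Figure D5:**
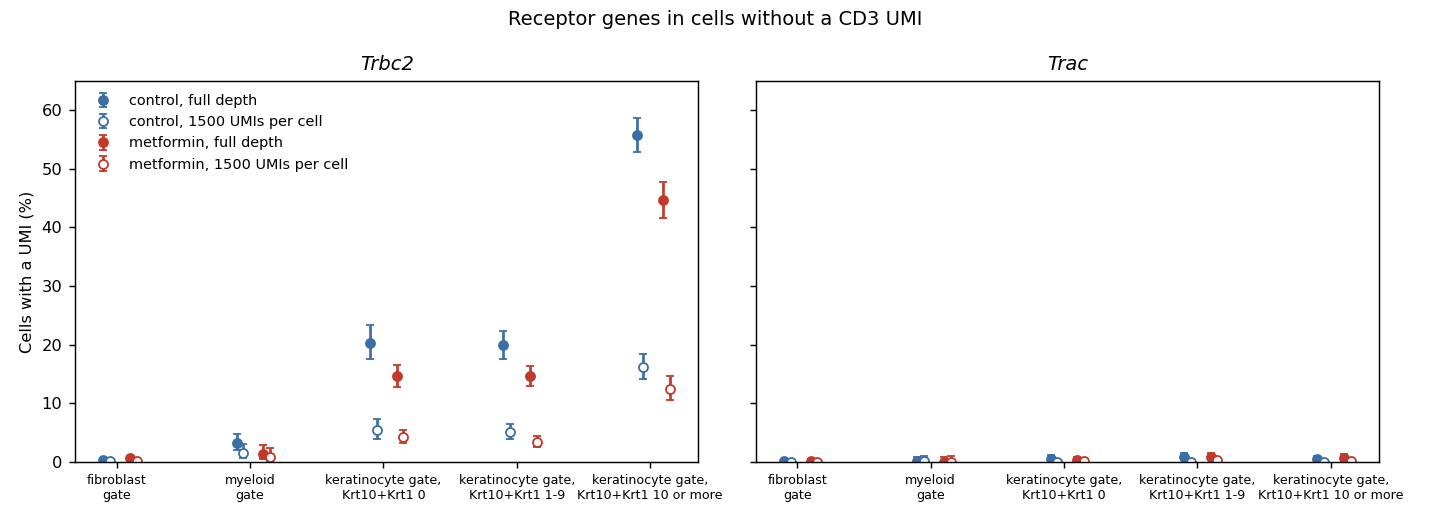
Share of cells (%) with a UMI of Trbc2 (left) and Trac (right) in cells without a CD3 UMI, by marker gate and by the sum of Krt10 and Krt1 UMIs, for control (blue) and metformin (red) at full depth (filled) and at 1500 UMIs per cell (open), with exact 95% intervals. Trbc2 reached 55.8% and 44.7% in the stratum with at least 10 Krt10 and Krt1 UMIs, whereas Trac stayed under 1% in every keratinocyte stratum.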

How the data were processed

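Skin cells of 1 control and 1 metformin library were measured. The authors deposited 1 matrix of raw counts for each library, in whole UMIs. The matrix headers name cellranger 4.0.0, and the build is mm10 (GRCm38). Its commands were not given in the sources used here. The libraries held 12108 and 12092 barcodes with 71345558 and 92341365 UMIs, and every barcode was read as deposited. The label text on extraction names another species, whereas the gene identifiers are those of mouse.

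A cell was kept when it had from 300 to 3000 detected genes, 800 or more UMIs and no more than 8% of counts from mitochondrial genes. Doublets called by Scrublet in scanpy 1.11.5 (expected rate 8%), 234 control and 287 metformin barcodes, were removed. No cell type annotation was used. Python 3.11.15, numpy 2.4.6 and scipy 1.17.1 were used. A gene was detected at 1 UMI. Shares carry Clopper-Pearson intervals, their differences Newcombe intervals, and ratios of summed counts exact conditional binomial intervals, all at 95%. A share of 0 allows up to 3 counts of the total. Intervals and limits cover counting error only, and those of shares treat cells as independent. Intervals of level ratios treat single UMIs as independent. They leave out the spread between cells and are too narrow for that reason. The functions were tested on simulated data. Thinning to 1500 or 1000 UMIs per cell was seeded.

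The members, gene lists and alternatives were chosen with earlier results of these data known. Named were the 8 members, up to 4 genes per list and 10 genes per class by the largest difference between delta-only and alpha-beta-only cells in both libraries, the 5 genes most correlated with Trdc and with Trac, and variable segments in at least 10 cells. Other named genes, among them Foxp3, Cd4, Blk and 5830411N06Rik, come from the same lists and were chosen after their values were seen, as were Krt10 with Krt1, the Trdv4 split and the Trac and Trdc strata. Alternatives were the CD3 limit, the cell filter, doublets, the detection limit, depth and the scale of levels.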

Additional observations from a re-analysis of the deposited data

How the results depend on the processing

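No paired analysis was possible because control and metformin are represented by a single library each, so no value here has a replicate check. Of 222 values recomputed under an alternative, 178 stayed within the counting interval of the main value and 44 moved beyond it. In 23 the sign differed from that of the main value, 13 of them beyond the interval and 10 within it. The lower shares of Trdc and Trdv4 and the higher share of alpha-beta-only cells in metformin kept their direction under every alternative run. They are shares of the same gate and not separate results. Set against all kept cells, cells with Trdc or Trdv4 were nearly level between the libraries. Summed levels depended most on which cells were included (log2 metformin over control here, with main values of 0.02 for Trdc, 0.04 for Tcrg-C1 and 0.16 for Trbc1, so that negative values of these 3 are changed signs). With a gate of 1 CD3 UMI they were -0.18 for Trdc, -0.58 for Trdv4, -0.16 for Tcrg-C1, -0.045 for Trbc1 and 0.22 for Trbc2, and the neither class differed by 4.83 points. With the wider cell filter (no upper bound on genes, 20% mitochondrial share allowed) they were -0.12 for Trdc, -0.077 for Tcrg-C1, 0.066 for Trac, -0.11 for Trbc1 and 0.19 for Trbc2. With doublets kept they were -0.15 for Trdc, -0.12 for Tcrg-C1, 0.0039 for Trbc1 and 0.25 for Trbc2. As a mean over cells they were -0.081 for Trdc, -0.049 for Tcrg-C1 and -0.0051 for Trbc1. In gated cells with a keratinocyte marker sum under 10, an alternative chosen after seeing the data, they were -0.10 for Trdc and -0.060 for Tcrg-C1. Class and share differences depended on depth and the detection limit. With 2 UMIs as detection the difference was -5.34 points for Tcrg-C1, 9.31 for Trbc2, -7.88 for delta-only cells, -2.58 for cells with both and 2.36 for Trdc with Trbc2 (a changed sign). At 1500 UMIs per cell it was -6.08 for delta-only cells and -4.41 for cells with both. At 1000 UMIs it was -3.51 for Tcrg-C1, 6.14 for Trbc2, -6.66 for delta-only cells and -5.23 for cells with both. With alpha beta cells set by Trac alone, also chosen after seeing the data, it was -6.74 for delta-only cells, -5.96 for cells with both and 4.2 for neither. Of the 20 genes ranked highest between the classes, 19 were among the 20 with doublets kept and 11 at 1500 UMIs per cell. The causes of these moves were not tested. Median depths of 2321.5 and 2286.5 UMIs limit detection of sparse genes such as Trac and Tcrg-C2, so a cell without a UMI is not shown to lack the transcript.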
